A study of Mus musculus with 12 samples.

Results

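The nuclear genes for the subunits of the 5 complexes of oxidative phosphorylation were described across 12 mouse brain arrays. Members were taken by gene symbol (Nduf, Sdh, Uqcr, Uqcc, Cox4i to Cox8 and Atp5 names) through the transcript accession of each probe. The gene table held 118 such symbols, of which 96 had a probe. The symbols without a probe were 22, 19 of them pseudogenes and 3 protein coding (Ndufb1, Ndufb4b and Ndufb4c). A member was used when its probe was well above background on all 12 arrays, which left 95 of the 14003 genes that passed the same filter. The complex IV isoform Cox8c did not stand well above background on any of the arrays. The 95 genes comprised 83 structural subunits (36 of complex I, 4 of complex II, 8 of complex III, 18 of complex IV and 17 of complex V) and 12 factors that help assemble the complexes. Ndufa4 and Ndufa4l2 were counted with complex IV.

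Oxidative phosphorylation is the process by which mitochondria turn the energy of nutrients into ATP. Complex I (NADH dehydrogenase) and complex II (succinate dehydrogenase) feed electrons into the inner membrane, complex III (the cytochrome bc1 complex) passes them to cytochrome c, complex IV (cytochrome c oxidase) hands them to oxygen, and complex V (ATP synthase) uses the proton gradient that results. Neurons depend heavily on this route for firing and synaptic transmission. Most subunits have a single gene, but several complex IV subunits have a widespread form and a form typical of muscle, testis or other particular tissues.

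The arrays fell into 3 sets, each array being hybridized with RNA pooled from 3 animals. The cortex set was prefrontal cortex of C57BL/6 mice without a transgene, aged 1.5, 4, 17 and 22 months. The transgenic set was hippocampus on the C57BL/6 strain and held the NCSTN model (mutated human NCSTN, a part of γ-secretase, 10 months), the MAPT model (wild-type human MAPT, which encodes tau, 12 months) and 5xFAD (familial Alzheimer's disease mutations, among them those in human APP, 6 months). The ICR set was hippocampus of male ICR mice 7 weeks old, given amyloid-β 1–42 (Aβ) at 5 or 10 µM or streptozotocin at 2.5 or 3 mg/kg into the cerebral ventricles 14 days before sampling, or scopolamine at 1 mg/kg intraperitoneally 30 min before it. All animals were fasted overnight. No untreated or non-transgenic hippocampus array was analysed here, and the promoters that drive the transgenes are not given in the sources used here.

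Because each model is 1 array, no difference has a replicate check and no test was made. Values are therefore compared with the spread of the other arrays of the same set and with the behaviour of all genes. Levels are log2 normalized intensities, a log2 difference of 1 being a doubling, and fold changes compare arrays for the same gene. A gene was called when it passed 1.5-fold. Between 63.5% and 75.8% of probes were well above background per array and none was saturated. The precision of the values could not be measured, because each model is 1 array. Of the listed hippocampal genes Zbtb20, Prox1 and Neurod6 were higher on every hippocampus array than on every cortex array, while C1ql2 and Wfs1 overlapped. The cortical genes Rorb, Tbr1 and Cux2 were lower on every hippocampus array, while Fezf2 overlapped and was highest on the MAPT array (10.95). Xist was well above background on the 3 transgenic arrays alone, while Ddx3y and Eif2s3y were well above it on the other 9, although the methods describe male animals. Region, strain, genotype, age, treatment, handling and this sex signal therefore cannot be told apart between sets.

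The structural subunits varied little within a set. In cortex 4 of 83 differed by at least 1.5-fold between their highest and lowest array, against 20.7% of all genes tested. In the transgenic set 5 of 83 did, against 32.4%, and in the ICR set 5 of 83 did, against 22.6%. The median difference between highest and lowest array was 0.21 in cortex, 0.20 in the transgenic set and 0.17 in the ICR set, while all genes had medians of 0.35, 0.41 and 0.33. At 2-fold the counts were 2, 1 and 1, beside 4.77%, 11.8% and 7.88% of all genes. Most members are bright, with a median level of 14.73 against 9.65 for all genes, and bright genes vary less on these arrays. Among genes with a mean level of at least 12, the share past 1.5-fold was 7.52% in cortex, 15.1% in the transgenic set and 6.44% in the ICR set. Of the 72 structural subunits as bright as that, 1 passed in cortex, 2 in the transgenic set and 0 in the ICR set. Without the 17-month array the cortex count was 0, without 5xFAD the transgenic count was 0, and without scopolamine the ICR count was 3. The plot of ranges by complex shows the few that stood apart.

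**Figure D1:**
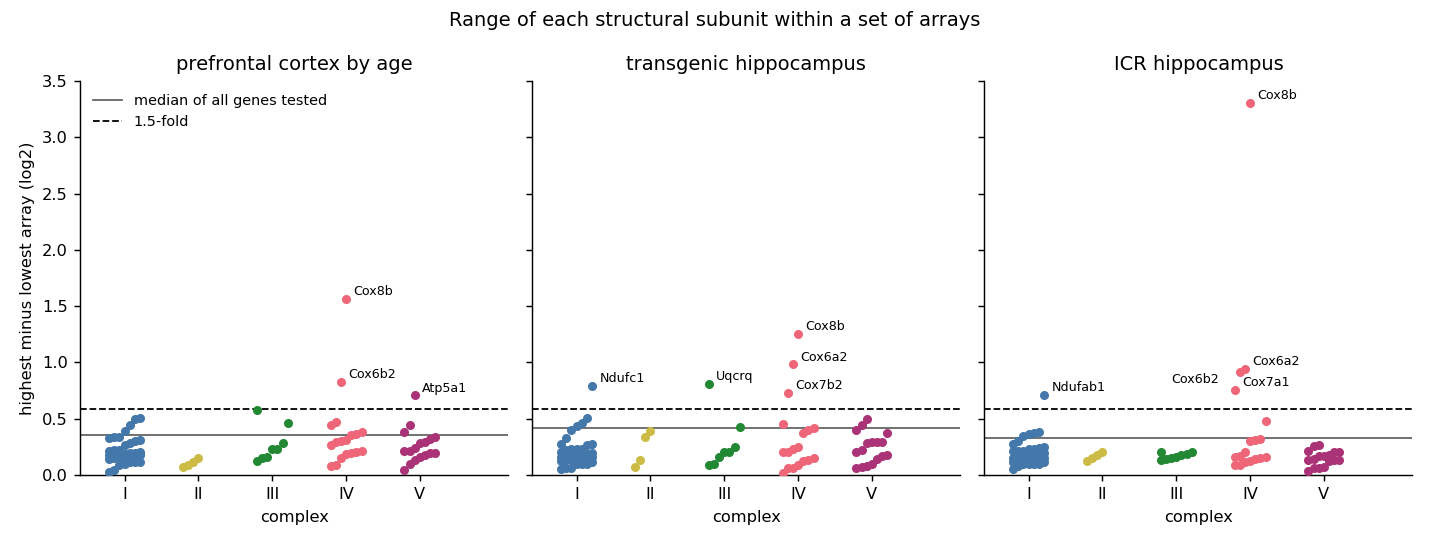
Log2 difference between the highest and the lowest array of a set (vertical axis) for the structural subunits, grouped by complex (horizontal axis) in the cortex, transgenic and ICR sets. The dashed line is 1.5-fold and the solid line the median of all genes tested, which is 0.35, 0.41 and 0.33. Named points are past 1.5-fold, with Cox8b the highest in each panel, and 1 complex I subunit is not plotted.

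Isoforms of complex IV made up 5 of the 10 genes past 1.5-fold in at least 1 set. Complex IV gave 2 of the 4 in cortex (Cox8b and Cox6b2), 3 of the 5 in the transgenic set (Cox8b, Cox6a2 and Cox7b2) and 4 of the 5 in the ICR set (Cox8b, Cox6a2, Cox6b2 and Cox7a1). No complex II subunit passed in any set, and complexes III and V each gave 1 gene over the 3 sets (Uqcrq and Atp5a1). The widespread partners of the moving isoforms (Cox8a, Cox6a1, Cox6b1, Cox7a2 and Cox7b) did not pass 1.5-fold in any set. None of the 5 moving isoforms had a mean level of at least 12, whereas every partner did. The difference between isoform and partner therefore cannot be told apart from signal level.

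Promoters are shown for 3 pairs in which the tissue-restricted form varied and the widespread form did not. Those of the pairs Cox6a1 and Cox6a2, and Cox7b and Cox7b2, are not shown. The windows run from 250 bases before to 50 bases after the start of transcription, as RefSeq gives them on mouse build GRCm38.p6, and are written 5′ to 3′ on the gene's own strand. Capitals mark matches on either strand to CCGGAAG (GABP, the factor also called NRF2), GCATGCGC (NRF1), GATGGCGG (YY1), AAGGTCA (ERR) or TATAAA (the TATA box), and none of these letters overlap within the windows shown. Cox8a and Cox8b encode the same small subunit in its widespread and its heart and muscle form, Cox6b1 and Cox6b2 a subunit facing cytochrome c in its widespread and testis form, and Cox7a2 and Cox7a1 another small subunit in its liver and its muscle form.
Cox8a (chr19:7217567-7217866, minus strand): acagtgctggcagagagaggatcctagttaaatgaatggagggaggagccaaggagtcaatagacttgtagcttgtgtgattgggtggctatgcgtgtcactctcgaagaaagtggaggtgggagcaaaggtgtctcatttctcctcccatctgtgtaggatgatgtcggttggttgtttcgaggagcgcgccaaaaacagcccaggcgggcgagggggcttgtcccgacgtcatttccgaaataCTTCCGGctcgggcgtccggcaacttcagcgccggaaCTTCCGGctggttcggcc
Cox8b (chr7:140900397-140900696, minus strand): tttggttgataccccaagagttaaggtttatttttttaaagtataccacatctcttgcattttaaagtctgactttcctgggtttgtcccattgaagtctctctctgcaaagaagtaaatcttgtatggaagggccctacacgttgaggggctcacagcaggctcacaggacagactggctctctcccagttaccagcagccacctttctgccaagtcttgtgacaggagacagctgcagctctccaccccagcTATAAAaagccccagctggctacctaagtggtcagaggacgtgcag
Cox6b1 (chr7:30626065-30626364, minus strand): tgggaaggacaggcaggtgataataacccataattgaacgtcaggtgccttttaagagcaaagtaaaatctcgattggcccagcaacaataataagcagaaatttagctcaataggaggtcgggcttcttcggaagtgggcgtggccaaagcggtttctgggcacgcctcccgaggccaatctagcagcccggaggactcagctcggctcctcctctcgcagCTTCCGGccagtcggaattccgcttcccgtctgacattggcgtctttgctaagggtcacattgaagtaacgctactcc
Cox6b2 (chr7:4753045-4753344, minus strand): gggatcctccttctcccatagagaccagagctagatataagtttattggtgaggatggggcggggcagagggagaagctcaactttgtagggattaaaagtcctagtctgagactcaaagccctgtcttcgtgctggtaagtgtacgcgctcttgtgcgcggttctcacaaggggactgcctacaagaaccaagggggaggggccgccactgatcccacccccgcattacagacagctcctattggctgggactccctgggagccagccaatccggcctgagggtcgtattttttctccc
Cox7a2 (chr9:79759804-79760103, minus strand): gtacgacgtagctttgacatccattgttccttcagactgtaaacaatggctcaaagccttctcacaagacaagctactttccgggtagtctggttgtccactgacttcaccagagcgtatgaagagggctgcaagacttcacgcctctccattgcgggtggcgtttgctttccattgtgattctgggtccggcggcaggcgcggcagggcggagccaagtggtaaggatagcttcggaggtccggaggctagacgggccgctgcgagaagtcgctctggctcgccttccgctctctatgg
Cox7a1 (chr7:30183921-30184220, plus strand): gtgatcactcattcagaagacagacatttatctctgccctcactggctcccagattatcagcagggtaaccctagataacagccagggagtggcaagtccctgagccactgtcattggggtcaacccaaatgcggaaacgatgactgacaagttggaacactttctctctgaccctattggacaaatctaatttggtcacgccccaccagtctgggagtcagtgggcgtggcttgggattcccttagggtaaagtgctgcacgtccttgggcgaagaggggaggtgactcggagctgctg

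The Cox8a window held 2 GABP matches and 19 CpG dinucleotides, and the Cox8b window 1 TATA match and 2 CpG. The Cox6b1 window held 1 GABP match and 17 CpG against 10 CpG in Cox6b2, and the Cox7a2 window 20 CpG against 7 in Cox7a1, and none of the 5 motifs was found in the Cox6b2, Cox7a2 and Cox7a1 windows. Windows were found for 79 of the 95 members. The 73 windows of the structural subunits had a median of 19 CpG, which was also the median over all genes tested. Of these windows 4 had fewer than 10 (Cox7a1, Cox7b, Cox8b and Ndufc2), against 25.5% over all genes tested. Cox7b is the widespread form of its pair. Among the 68 structural subunits with a window, GABP letters were present in 25% (17.8% of genes tested and 9.93% of all genes with a window), NRF1 letters in 14.7% (5.5% and 3.05%), YY1 letters in 8.82% (3.81% and 1.97%), ERR letters in 11.8% (4.19% and 5.38%) and TATA letters in 11.8% (9.48% and 15.7%). These are counts of letters, not of bound sites.

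Cox8b had the widest spread of all members. Its level in cortex was 6.18, 6.66, 7.75 and 6.30 at 1.5, 4, 17 and 22 months. In the transgenic set it was 10.54 in NCSTN, 10.48 in MAPT and 11.73 in 5xFAD. In the ICR set it was 10.69 and 11.48 after 5 and 10 µM Aβ, 8.32 and 8.17 after 2.5 and 3 mg/kg streptozotocin, and 11.10 after scopolamine. The 17-month array was thus the highest cortex array, 5xFAD the highest transgenic array, and both streptozotocin arrays lay below the other ICR arrays. The highest and lowest arrays differed 2.96-fold in cortex, 2.39-fold in the transgenic set and 9.89-fold in the ICR set, and the means of the Aβ and streptozotocin arrays differed 7.15-fold. Cox8a, its widespread partner, stayed between 17.18 and 17.45 in cortex, between 17.15 and 17.21 in the transgenic set and between 17.26 and 17.35 in the ICR set.

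**Figure D2:**
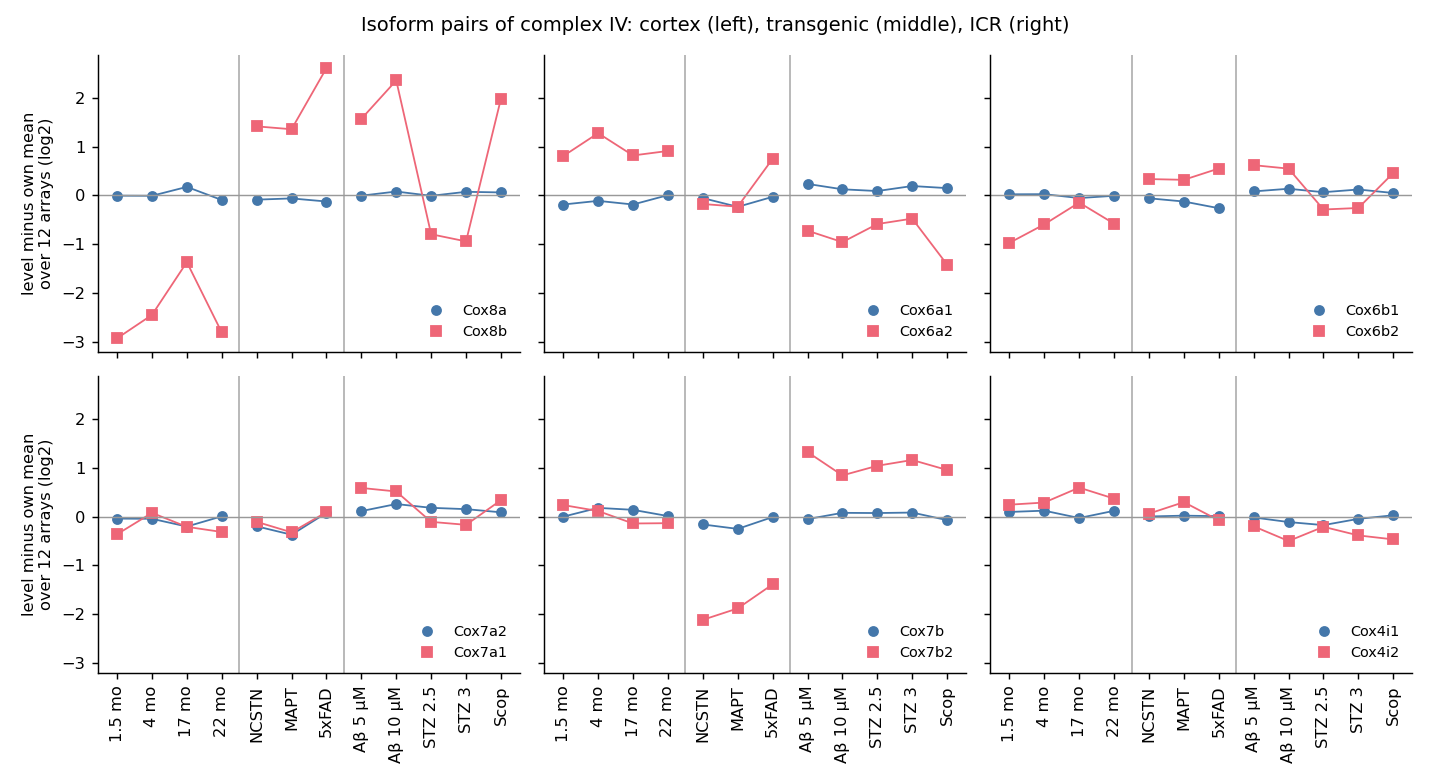
Levels of 6 complex IV isoform pairs on the 12 arrays, each gene as its log2 level minus its own mean over the arrays (vertical axis), with arrays in the order of the labels (horizontal axis) and vertical lines between the cortex, transgenic and ICR sets. Blue circles are the widespread form and red squares the tissue-restricted form. The red points of Cox8b span several log2 units and drop on both streptozotocin arrays, while the blue points stay near 0.

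Markers of the choroid plexus, the tissue in the ventricles that makes cerebrospinal fluid, moved with Cox8b. Ttr (transthyretin, its most abundant transcript) was at 5.11, 6.07, 15.57 and 6.85 in cortex by age. It was at 16.84, 16.97 and 16.49 on the NCSTN, MAPT and 5xFAD arrays. In the ICR set it was at 17.35 and 17.41 after Aβ, 11.27 and 12.06 after streptozotocin and 17.33 after scopolamine. The summed signal of the 6 listed markers (Ttr, Kl, Folr1, Clic6, Kcne2 and Aqp1) was between 7.32 and 15.61 in cortex, highest at 17 months. It was between 16.65 and 17.05 in the transgenic set, and between 11.63 and 17.55 in the ICR set, lowest on both streptozotocin arrays. A summed signal is the log2 of summed intensities, so this one is mostly Ttr wherever Ttr is bright (15.57 of 15.61 at 17 months). Of the 6 markers, 3 were not well above background on every array (Folr1, Kcne2 and Aqp1). In the transgenic set Ttr and Kl (10.98, 10.90 and 10.88) were lowest in 5xFAD, where Cox8b was highest. The other listed markers were highest there, as Cox8b was. Clic6 was at 11.85, 11.60 and 12.56, and Folr1 at 6.88, 6.71 and 7.38. Kcne2 was at 10.53, 10.64 and 10.95, and Aqp1 at 9.34, 9.35 and 10.05. The part of these markers in the Cox8b values was not tested, and fewer cells of a type and less RNA per cell cannot be told apart in such bulk RNA.

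**Figure D3:**
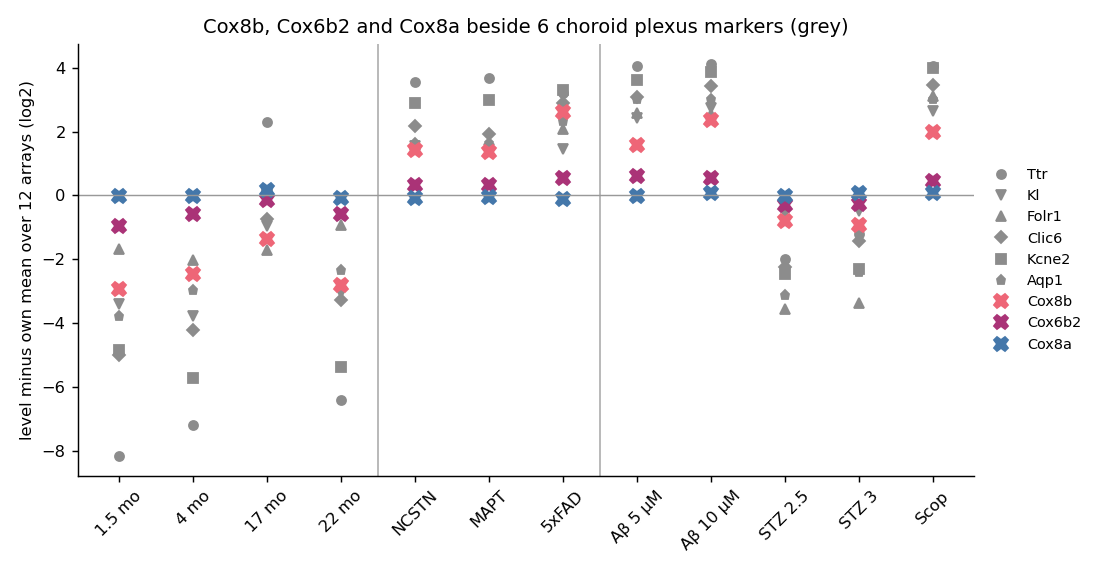
Cox8b, Cox6b2 and Cox8a (crosses) beside 6 choroid plexus markers (grey), each as its log2 level minus its own mean over the 12 arrays (vertical axis), with arrays on the horizontal axis and vertical lines between sets. Cox8b and the grey points other than Folr1 are highest at 17 months among the cortex arrays, Cox8b and all 6 are lowest on both streptozotocin arrays among the ICR arrays, and Cox8a stays near 0.

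Cox6b2 and Cox7a1 moved on the same arrays as Cox8b in the ICR set. Cox6b2 was at 9.75 and 9.68 after Aβ, 8.84 and 8.87 after streptozotocin and 9.59 after scopolamine. In cortex it was at 8.15, 8.53, 8.98 and 8.55 by age, the 17-month array again being the highest. Cox7a1 was at 11.33 and 11.25 after Aβ, 10.63 and 10.57 after streptozotocin and 11.08 after scopolamine. Both streptozotocin arrays were below the other 3 for both genes, and the Aβ mean exceeded the streptozotocin mean 1.81-fold for Cox6b2 and 1.61-fold for Cox7a1. With Cox8b these were the 3 structural subunits past 1.5-fold in that contrast in the upward direction, beside 5.56% of all genes, and none passed downward, beside 1.66%. Their partners Cox6b1 and Cox7a2 differed by 0.02 and 0.02 on the log2 scale.

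Cox6a2, the heart and muscle form of a regulatory complex IV subunit, followed another order. It was at 11.85, 12.32, 11.87 and 11.96 in cortex, at 10.87 in NCSTN, 10.82 in MAPT and 11.80 in 5xFAD, and at 10.32, 10.09, 10.46, 10.57 and 9.63 in the ICR set (5 and 10 µM Aβ, 2.5 and 3 mg/kg streptozotocin, scopolamine). Every cortex array was above every hippocampus array, 5xFAD lay close to cortex, and scopolamine was the lowest array of all 12. The means of the cortex and ICR arrays differed 3.45-fold. Of the 4 listed interneuron markers Pvalb, a marker of fast-spiking cells, was at 12.36 to 13.18 in cortex. It was at 11.71, 11.80 and 11.56 in NCSTN, MAPT and 5xFAD. In the ICR set Pvalb was at 11.90, 12.06, 12.34, 12.10 and 11.86, in the order above. Gad1, Gad2 and Sst overlapped between cortex and hippocampus, and all 4 markers were lowest on 5xFAD among the transgenic arrays. The part of these markers in the Cox6a2 values was not tested. Cox6a1, the widespread form, ranged over 0.19, 0.21 and 0.15 within the 3 sets.

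The other isoform pairs differed mainly between sets. Cox7b2, a testis form, was at 6.07 to 6.44 in cortex, at 4.09, 4.32 and 4.82 in the transgenic set and at 7.05 to 7.53 in the ICR set, so that the sets did not overlap. Its ICR minus transgenic difference of 2.87 on the log2 scale lay between 1.29 and 2.87 over the 8 settings. Cox4i2, a form linked to low oxygen, was higher in cortex (8.25 to 8.60) than in the ICR set (7.50 to 7.80), the means differing 1.66-fold. Ndufa4l2, another form linked to low oxygen, was at 8.76 to 9.12 in cortex and 8.43 to 8.57 in the ICR set, while the ranges of Ndufa4 were 0.31, 0.06 and 0.11 within the 3 sets. The 3 genes for the c-ring of ATP synthase (Atp5g1, Atp5g2 and Atp5g3) encode the same mature protein, and none ranged over more than 0.40 within a set.

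Between sets few other subunits of the rule passed 1.5-fold. Cyc1, a complex III subunit whose symbol lies outside the rule, is not in these counts. It was at 14.74 to 15.02 in cortex and 14.82 to 14.94 in the transgenic set. In the ICR set it was lower, at 14.01 to 14.38, without overlap. From cortex to the transgenic hippocampus 2 structural subunits were higher in cortex (Cox7b2 and Cox6a2, beside 9.69% of all genes) and 2 were lower (Cox8b and Cox6b2, beside 9.11%). From cortex to the ICR hippocampus 2 were higher in cortex (Cox6a2 and Cox4i2, beside 12.3%) and 4 were lower (Cox8b, Cox7b2, Cox6b2 and Ndufb11, beside 12.1%). Ndufb11, the mean of a bright and a dim probe, passed there in 4 of 8 settings. Between the hippocampus sets 1 was higher in ICR (Cox7b2, beside 5.73%) and 2 were lower (Cox8b and Cox6a2, beside 5.5%). The complex V median was 0.18 above that of all genes in ICR minus transgenic hippocampus and kept its sign in 8 of 8 settings of normalization, filter and values, with sizes from 0.03 to 0.35, whereas those of the other 4 complexes were 0.10 to 0.15 and kept it in 7 of 8.

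Within the cortex set the 17-month array differed from the other ages in most subunits, by small amounts. The 17-month array was the lowest of the 4 for 45 of 83 structural subunits (54.2%), against 30.4% of all genes, and for 42 of the 72 bright ones (58.3%), against 38.5% of bright genes. By complex it was the lowest for 20 of 36 in complex I, 3 of 4 in complex II, 4 of 8 in complex III, 7 of 18 in complex IV and 11 of 17 in complex V. Relative to the mean of the other 3 ages 60 of the 83 (72.3%) were below 0, against 50.1% of all genes. The complex medians, minus that of all genes, were -0.07 for complex I, -0.06 for complex II, -0.07 for complex III, -0.04 for complex IV and -0.14 for complex V. All 5 kept their sign in the 8 settings, and the count of 45 lay between 41 and 48. The 4-month array, which is part of that reference, lay the other way. Its complex medians were 0.07, 0.08, 0.08, 0.04 and 0.03, and all 5 kept their sign in the 8 settings. It was the highest of the 4 for 31 of 83 subunits (37.3%), against 23.4% of all genes. At 22 months the same medians were 0.02, -0.01, 0.01, -0.02 and 0.04, against a reference that includes the low 17-month array. When an array of that reference was left out, their lowest values were -0.012, -0.037, -0.004, -0.042 and -0.009. These medians therefore do not show whether part of the lower level persisted at the oldest age. The 22-month array was the lowest of the 4 for 6 of 83 subunits (7.23%), against 17.4% of all genes. The summed signal of 5 oligodendrocyte markers was also lowest at 17 months (15.94, 16.86, 15.83 and 16.49 by age), whereas that of 6 neuronal markers was at 17.83, 17.91, 17.85 and 17.77, and that of the 6 choroid plexus markers was 15.61 at 17 months against 7.32 to 8.45 at the other ages. The part of these markers in the subunit values was not tested.

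**Figure D4:**
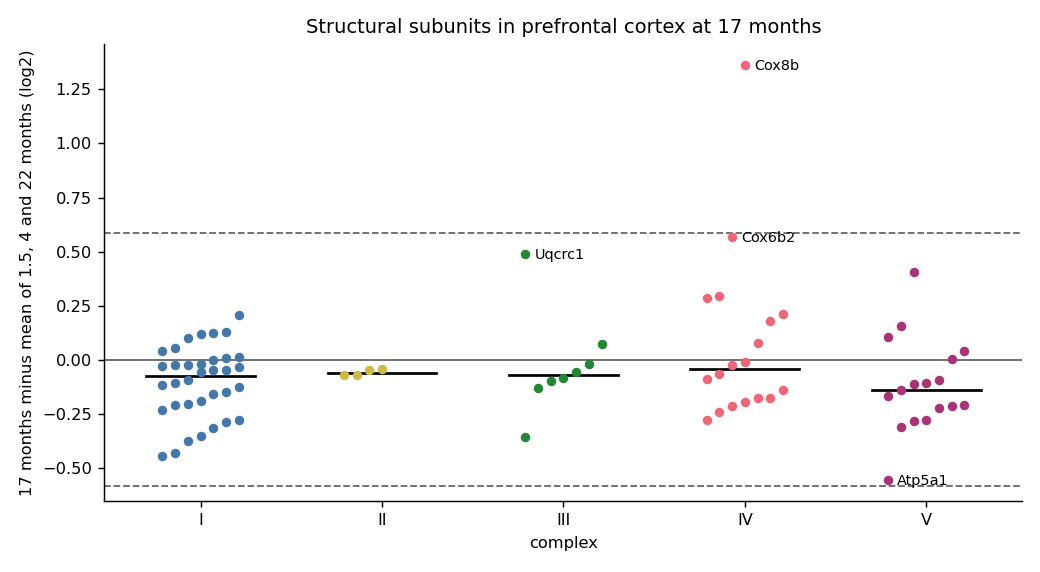
Log2 difference between the 17-month cortex array and the mean of the 1.5, 4 and 22-month arrays (vertical axis) for the structural subunits by complex (horizontal axis, 1 complex I subunit not plotted), with black bars at the medians over all members of a complex and dashed lines at 1.5-fold. Most points lie just below 0 and Cox8b lies at 1.36.

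Few subunits reached 1.5-fold on a single cortex array. At 17 months Cox8b was the 1 structural subunit at least 1.5-fold higher, beside 3.51% of all genes, and 1 was lower, beside 2.36%. On the 1.5-month array Cox8b was the 1 subunit lower (beside 2.95%) and none was higher (beside 1.88%), and none passed at 4 months (beside 1.46% higher and 1.81% lower) or 22 months (beside 1.51% and 1.11%).

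Core and accessory subunits of complex I were mostly a little lower at 17 months. Ndufs8, an iron-sulfur subunit, was at 12.52, 12.52, 12.09 and 12.53 by age. Ndufs1, Ndufs3, Ndufs7, Ndufv1 and Ndufv2, which carry the electron path from NADH, differed from the other ages by -0.02, 0.04, 0.10, -0.12 and -0.12. Among accessory subunits Ndufb11 was at 10.74, 10.78, 10.34 and 10.84, and Ndufa10 at 12.94, 13.08, 12.57 and 12.82. The Ndufb11 level averages 2 probes, and most of its 17-month difference came from the dimmer one. The brighter probe was at 14.94, 14.94, 14.88 and 15.07 by age, and the dimmer at 6.54, 6.63, 5.79 and 6.61. Over the 8 settings the 17-month difference of Ndufb11 ran from -0.47 to -0.10. The 17-month array was the lowest for Ndufs8, Ndufb11 and Ndufa10, and it did not reach 1.5-fold for any of them.

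In complex V the α subunit gene Atp5a1 was at 15.44, 15.34, 14.91 and 15.62 by age. The β subunit gene Atp5b, which carries the catalytic sites, was at 16.76, 16.72, 16.56 and 16.87, and Atp5g3 was at 15.83, 15.76, 15.49 and 15.82. All 3 were lowest at 17 months, and Atp5a1 was the 1 subunit of complex V whose ages spanned 1.5-fold (1.63-fold between 17 and 22 months). Atp5d, the δ subunit of the central stalk, went the other way with 14.27, 14.35, 14.71 and 14.30.

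Complex III showed both directions and complex II a single one. In complex III the Rieske iron-sulfur protein Uqcrfs1 was at 13.73, 13.61, 13.27 and 13.55, lowest at 17 months, while the core protein Uqcrc1 was at 13.16, 13.27, 13.74 and 13.32, highest at 17 months. The 4 subunits of complex II differed from the other ages by -0.07 to -0.04 at 17 months, and their ranges over the 4 ages were 0.09 for Sdha, 0.07 for Sdhb, 0.15 for Sdhc and 0.12 for Sdhd. Cox8a was at 17.27, 17.26, 17.45 and 17.18 and so did not follow the lower level of most subunits.

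Young and old cortex differed by small amounts. The mean of the 17 and 22-month arrays minus that of the 1.5 and 4-month arrays had a median of -0.03 over the structural subunits and 0.02 over all genes. Of the 83 subunits 55 (66.3%) were below 0, against 46.8% of all genes. In that contrast 1 structural subunit was at least 1.5-fold higher (Cox8b, beside 1.98% of all genes) and 1 was lower, beside 1.03%. The Cox8b value came from the 17-month array. Both older arrays were above both younger arrays for 8 of 83, against 20.2% of all genes, and below them for 14 of 83, against 15.6%. With 5 complexes set against 8 settings, complexes II and V kept a negative median throughout and complexes I, III and IV each changed sign in 1.

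**Figure D5:**
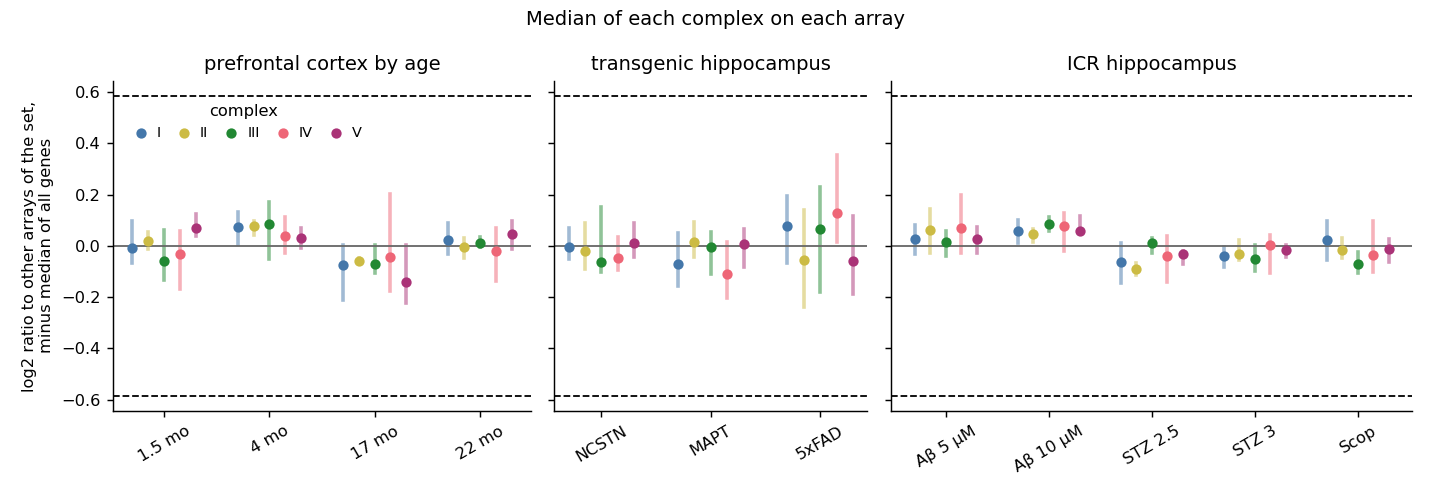
Median log2 ratio of the structural subunits of each complex on each array to the other arrays of its set, minus the median over all genes (points, vertical axis), with bars from the lower to the upper quartile of the members and dashed lines at 1.5-fold. No point lies further than 0.14 from 0, and the lowest is complex V at 17 months.

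In the transgenic set the complex medians lay between -0.11 and 0.13. They were 0.00, -0.07 and 0.08 for complex I in NCSTN, MAPT and 5xFAD, -0.02, 0.02 and -0.05 for complex II, -0.06, -0.005 and 0.07 for complex III, -0.05, -0.11 and 0.13 for complex IV, and 0.01, 0.01 and -0.06 for complex V. Of these 15 medians 2 kept their sign in all 8 settings, complex V in NCSTN (above 0) and complex II in 5xFAD (below 0), and the other 13 changed sign in at least 1. The MAPT array was the lowest for 40 of 83, against 26.2% of all genes, and for between 30 and 43 of them over the 8 settings, against 24.9% to 32.2%.

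Single subunits stood apart on the 5xFAD array. There 4 structural subunits were at least 1.5-fold higher than the mean of the other 2 models (Cox8b, Cox6a2, Ndufc1 and Cox7b2), beside 12.2% of all genes, and 1 was lower (Uqcrq), beside 12.9%. On the MAPT array 1 was lower (Cox8b, beside 5.39%) and none was higher (beside 3.26%), and on the NCSTN array none passed, beside 4.62% higher and 4.93% lower. Ndufc1, a small accessory subunit of complex I, was at 14.63 in NCSTN, 14.53 in MAPT and 15.32 in 5xFAD, and at 14.42 to 14.60 in cortex and 14.90 to 15.10 in the ICR set. The 5xFAD level of Ndufc1 thus lay above all the other arrays.

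Uqcrq, a small complex III subunit near the quinone sites, rests on 2 probes that disagree. One probe was at 14.48, 14.52 and 13.00 in NCSTN, MAPT and 5xFAD, and the other was at 15.71, 15.65 and 15.58. The lower 5xFAD value therefore came from 1 of the 2 probes, and with the brighter probe alone the 5xFAD difference was -0.10. Of the 24 members with at least 2 probes, 3 had probes that disagreed past 1.5-fold in the transgenic set (Uqcrq, Ndufaf5 and Atp5l), beside 18.5% of all such genes, and 17 disagreed most on the 5xFAD array, beside 67.9%. In cortex 1 did (Uqcrb, at 1.5 months, beside 10.3%), and in the ICR set none did, beside 7.25%. All 5 listed markers of microglia were highest on the 5xFAD array, as were Gfap, Aqp4 and Slc1a3 among 5 of astrocytes, with Aif1 at 11.32, 11.15 and 12.61, Cx3cr1 at 11.39, 11.48 and 13.35 and Gfap at 11.84, 10.81 and 13.12 on the NCSTN, MAPT and 5xFAD arrays. Of the other astrocyte markers Slc1a2 was lowest there (11.75, 11.47 and 11.28) and Aldh1l1 was at 13.05, 12.84 and 13.06. Their part in the 5xFAD values was not tested.

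In the ICR set the complex medians lay between -0.09 and 0.08. After 10 µM Aβ they were 0.06, 0.04, 0.08, 0.08 and 0.06 for complexes I to V, and all 5 stayed above 0 in the 8 settings. That array also had the lowest summed signal of oligodendrocyte markers in the set (16.35 against 16.63 to 17.23) and the highest of choroid plexus markers (17.55), whose part was not tested. After 5 µM Aβ they were 0.03, 0.06, 0.02, 0.07 and 0.03, and none kept its sign. After streptozotocin they were -0.06, -0.09, 0.01, -0.04 and -0.03 for the lower dose and -0.04, -0.03, -0.05, 0.00 and -0.02 for the higher, and after scopolamine 0.02, -0.02, -0.07, -0.03 and -0.01. The 10 µM Aβ array was the highest of the 5 for 32 of 83 structural subunits (38.6%), against 12.3% of all genes, but with the values of the deposited matrix for 4 of 83 (4.82%), against 3.8% of all genes. Both Aβ arrays were above both streptozotocin arrays for 24 of 83, against 20.2% of all genes, and below them for 8, against 30.3%, but with the 75th-percentile scaling 8 were above (9.64%, against 17.99% of all genes) and 20 below (24.1%, against 33.2%).

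Few ICR subunits passed 1.5-fold on a single array. Beside Cox8b (higher after 5 µM Aβ, 10 µM Aβ and scopolamine, lower on both streptozotocin arrays), Cox6b2 was lower on both streptozotocin arrays and Cox6a2 lower after scopolamine. These are 1, 1, 0, 0 and 1 higher, in the order above, beside 4.18%, 2.89%, 2.06%, 1.28% and 1.97% of all genes, and 0, 0, 2, 2 and 1 lower, beside 1.41%, 1.31%, 5.36%, 2.31% and 2.05%. Ndufab1, the mitochondrial acyl carrier protein, was at 7.64, 7.84, 7.33, 7.37 and 8.04 and spanned 1.64-fold, a low level that fell under 1.5-fold in 2 of 8 settings. The ranges of catalytic subunits over the 5 arrays were 0.16 for Uqcrfs1, 0.17 for Atp5a1, 0.26 for Atp5b, and from 0.10 for Ndufv2 to 0.36 for Ndufs7 among the core subunits of complex I described at 17 months. The brightest subunits of complexes I and III, Ndufa13 and Uqcr11, ranged over 0.10 and 0.15. In complex II the ranges were 0.20 for Sdha, 0.15 for Sdhb, 0.17 for Sdhc and 0.13 for Sdhd.

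Of the 12 assembly factors of the rule none spanned 1.5-fold in cortex (beside 20.7% of all genes), 4 did in the transgenic set (Ndufaf5, Ndufaf8, Uqcc1 and Ndufaf4, a share near the 32.4% of all genes) and 1 did in the ICR set (Ndufaf8, beside 22.6%). Ndufaf8, a complex I assembly factor, was at 9.43 in NCSTN, 9.26 in MAPT and 8.35 in 5xFAD. Uqcc1, which supports cytochrome b synthesis in complex III, was at 10.22, 10.25 and 9.38. Both were lowest in 5xFAD, and both differences passed 1.5-fold in 8 of 8 settings. Ndufaf5, an enzyme that modifies a complex I subunit, was at 7.31, 7.14 and 8.38, but its 2 probes were at 5.80 and 10.97 in 5xFAD and disagreed there. In cortex the widest ranges were 0.52 for Uqcc1, 0.49 for Ndufaf5 and 0.38 for Ndufaf2, and in the ICR set 0.66 for Ndufaf8, 0.40 for Ndufaf5 and 0.38 for Ndufaf1.

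The other genes of the pathway are read against the same shares of all genes, 20.7% in cortex, 32.4% in the transgenic set and 22.6% in the ICR set. Of 28 further assembly factors 26 were well above background on all arrays, of which 3 spanned 1.5-fold in cortex, 5 in the transgenic set and 3 in the ICR set. Of 8 electron carriers and related proteins (among them Cycs, the cytochrome c that carries electrons from complex III to complex IV) 6 were well above background on all arrays, and none of these did in any set. Of 12 regulators of mitochondrial genes none did in cortex, 2 did in the transgenic set (Ppargc1b and Tfam) and 2 in the ICR set (Ppargc1b and Twnk). Tfam, which packages and transcribes mitochondrial DNA, was at 9.25 in NCSTN, 9.16 in MAPT and 8.64 in 5xFAD. Ppargc1b, a coactivator of mitochondrial genes, was at 7.77, 7.97 and 6.43. Of 8 carriers and channels of the mitochondrial membranes Ucp2 alone passed, in all 3 sets, with 8.11, 7.70 and 9.84 in the transgenic set. None of the 13 subunits encoded by mitochondrial DNA had a matched probe.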

How the data were processed

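RNA pooled from 3 animals per model was hybridized to 1-colour Agilent mouse 44K arrays, 12 in all. The deposited intensity values are the scanner's processed signal, already corrected for background by the authors' scanner software. Control spots and outlier spots were left out, log2 intensities of 36519 of 39429 probes were quantile normalized over the 12 arrays, and probes of a gene were averaged. Probe accessions were matched to RefSeq symbols, which named 69.8% of probes. The deposited matrix of processed intensities of the same arrays, converted to log2 here, was used as an alternative. Its processing of the ICR arrays is not given in the sources used here. Ratios compare an array with the average of the remaining arrays in its set. With 1 array per model no test was made, and a gene was called past 1.5-fold (2-fold as an alternative). Scripts were tested on simulated data. Named genes were the 3 with the widest range in each set, all complex II subunits, the brightest subunit per complex, catalytic subunits, isoform pairs and the 3 widest assembly factors per set. Other subunits named with values (Ndufb11, Ndufa10, Ndufc1, Ndufab1, Atp5d and Uqcrc1) were picked once their values had been seen. Some items are not reported here. The members and lists were chosen with earlier results of these data known. The alternatives were 75th-percentile scaling, quantile normalization within each set, the deposited matrix, normexp (offset 50, on median spot signals in place of the planned mean signals), 2 other filters, the brightest probe per gene, other memberships and leaving out each array. R 4.3.3 with limma 3.58.1 and Python 3.11.15 with numpy 2.4.6 and pandas 2.3.3 were used.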

Additional observations from a re-analysis of the deposited data

How the results depend on the processing

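Of the 60 complex medians, 23 kept 1 sign in the 8 settings of normalization, filter and probe choice. No paired analysis was possible because each model is 1 array and the labels give no replicate numbers. With 75th-percentile scaling 22 of 60 changed sign. The medians that moved beyond the members' spread under it were -0.0175 for complex V at 1.5 months, -0.0948 for complex II at 17 months, 0.0545 and 0.0784 for complexes II and III at 22 months, 0.121, 0.0938, 0.0879, 0.0706 and 0.164 for complexes I to V in NCSTN, -0.0760, -0.0885 and -0.108 for complexes I, III and V after 5 µM Aβ, 0.0112 for complex V after 2.5 mg/kg streptozotocin, and 0.0414 and 0.0412 for complexes II and V after 3 mg/kg. With the deposited matrix 17 changed sign. Those that moved were 0.0326 for complex III in NCSTN, -0.110 for complex I in 5xFAD, 0.117, 0.153 and 0.127 for complexes II, III and V after 10 µM Aβ, -0.178, -0.156, -0.136 and -0.193 for complexes I, II, III and V after 2.5 mg/kg streptozotocin, 0.0274 for complex II after 3 mg/kg, and 0.161, -0.0835, 0.0704 and 0.0750 for complexes I, II, III and V after scopolamine. With normexp 12 changed sign, and complex II moved to -0.0400 at 17 months, 0.123 in NCSTN, 0.0548 after 3 mg/kg streptozotocin and -0.176 after scopolamine. The other settings moved none of the 60, the sign changing for at most 8. Leaving out an array gave medians from -0.16 to 0.14, and complex III at 22 months ran from -0.00376 to 0.0703, the latter without the 4-month array. The cause of these changes was not tested. The count of subunits past 1.5-fold within a set ran from 0 to 4 in cortex, from 0 to 5 in the transgenic set and from 3 to 5 in the ICR set when arrays were left out. It was 9 in the transgenic set with assembly factors included, and at 2-fold 2, 1 and 1 subunits remained past the threshold in the 3 sets. On single arrays 2-fold left 0 at 1.5 months, 0 in MAPT, 1 in 5xFAD, 0 after 5 µM Aβ, 1 after each dose of streptozotocin and 1 after scopolamine, and 75th-percentile scaling gave 1 at 22 months and 1 in NCSTN. In comparisons chosen after seeing the data, both Aβ arrays were above both streptozotocin arrays for 8 and below for 20 subunits with 75th-percentile scaling (17.99% and 33.2% of all genes), and for 7 and 33 with the deposited matrix (8.23% and 52.8%), in which the 10 µM Aβ array was the highest for 4 (3.8%). For 2 genes of low signal the range within a set depended on the setting, from 0.25 to 0.73 for Ndufab1 in the ICR set and down to 0.19 for Cox7b2 in the transgenic set, against 0.73 as reported.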

Other observations

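Acad9, which encodes a factor needed for the assembly of complex I, had a wide spread outside the subunits themselves. It was at 11.07, 11.25, 10.87 and 11.19 in cortex by age and at 11.14, 11.08 and 11.11 in NCSTN, MAPT and 5xFAD. In the ICR set it was at 8.69 and 8.74 after Aβ, 10.45 and 8.75 after 2.5 and 3 mg/kg streptozotocin and 8.72 after scopolamine, so that 1 ICR array lay apart from the other 4 and all 5 lay below the other sets. Ucp2, a carrier of the inner mitochondrial membrane that is also expressed in microglia, was at 7.52, 7.50, 8.34 and 7.51 in cortex by age, and at 8.29, 8.57, 7.64, 7.85 and 8.58 in the ICR set, lower on both streptozotocin arrays.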
